A study of Mus musculus with 9 samples.

Results

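The 10 genes described here, *Pdgfra*, *Pdgfrb*, *Dpp4*, *Pi16*, *Cd34*, *Ly6a*, *Cd55*, *Dlk1*, *Dcn* and *Hmga2*, are genes known from adipocyte progenitors and fibroblasts, and they were taken by their symbols from a count table of 56748 genes. All 10 reached 0.5 CPM (the count scaled to the size of the library) in at least 1 library, and were tested among 18510 genes. The table came from epididymal adipose tissue of male wild-type (WT) C57BL/6J mice that received a high-fat diet (HFD) for 8 weeks from 8 weeks of age. Tissue was sequenced at the end of the HFD (Pre), or after the mice had changed to a standard diet (SD) for 1 week (WL1) or 2 weeks (WL2), with 3 libraries per phase. The mice at WL1 and WL2 were therefore 1 and 2 weeks older than those at Pre, and effects of age and of the diet change cannot be told apart, since each later phase was sequenced only after the change to SD. The labels number the libraries and do not say that each came from 1 mouse, so p-values measure the spread between these libraries.

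Adipocyte progenitors lie in the stroma around the fat cells, and are commonly recognised by PDGFRα, CD34 and Sca-1 (the product of *Ly6a*). Cells high in *Dpp4*, *Pi16* and *Cd55* are known as interstitial progenitors, which can give rise to preadipocytes that are closer to fat cells. Progenitors can also turn towards matrix production, as fibroblasts do, and *Dlk1* and *Hmga2* are known from immature preadipocytes and from embryonic tissue. In bulk tissue, fewer cells of a type and less RNA per cell cannot be told apart.

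*Hmga2* encodes a chromatin protein that bends DNA through AT-hooks, and it was the member with the largest difference between phases. Its messenger RNA is a textbook target of the let-7 microRNAs, which pair with sites in the 3′UTR through their seed (bases 2 to 8). The sequences are shown because they are the best known regulatory elements of this gene. The mature mouse sequences from RefSeq, with the seed in capitals, hold 10 microRNAs with the same seed, of which 3 are given.
let-7a-5p: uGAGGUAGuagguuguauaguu
let-7g-5p: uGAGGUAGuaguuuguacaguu
miR-98-5p: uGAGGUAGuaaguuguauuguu
The complement of this seed, CTACCTC, occurs 4 times in the longest 3′UTR of *Hmga2* (3014 bases) in GENCODE M21 on GRCm38, at the following places on the minus strand of chromosome 10, with the match in capitals.
Hmga2 at chr10:120364224-120364246: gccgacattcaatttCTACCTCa
Hmga2 at chr10:120362987-120363009: ccccactcctcaataCTACCTCt
Hmga2 at chr10:120362549-120362571: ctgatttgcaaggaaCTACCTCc
Hmga2 at chr10:120361691-120361713: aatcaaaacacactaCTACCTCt
Of 14637 tested genes with an annotated 3′UTR, 10.3% held at least 1 match on the sense strand and 0.0615% (9 genes) held at least 4. The other 9 members held 0 matches each in their longest 3′UTR, which is a statement about these letters in these windows alone. Among the genes listed around *Hmga2* further below, *Hmga1* and *Igf2bp3* held 1 match each, *Lin28a* 2, and *Igf2bp1* and *Lin28b* 4 each. *Igf2*, *Plag1* and *Pcna* held 0. *Igf2bp2*, a gene for an RNA-binding protein whose transcription HMGA2 is known to raise, also held 1 match, on the minus strand of chromosome 16.
Igf2bp2 at chr16:22059473-22059495: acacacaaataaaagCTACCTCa
Mature microRNAs were not measured in these libraries.

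The libraries held 16434450 to 22729072 counts, and transcripts of mitochondrial genes took 3.15% to 3.57% of the counts at Pre, 1.86% to 2.03% at WL1 and 2.28% to 2.88% at WL2. Adipocyte genes were abundant in every library (12 genes, summed 36334 to 59147 CPM), as the tissue label says, and 10 epididymis and testis genes summed to at most 1.89 CPM. Pre replicate 1 was the lowest of the 9 libraries for 5 of the 10 members (*Pdgfra*, *Dpp4*, *Dlk1*, *Dcn* and *Hmga2*), and no other library was lowest for more than 2. Fold changes against Pre that it moved by more than 1.5 times are given below with and without it, for the comparisons printed. Pre replicate 2 stood apart in T cell genes. Of these, 9 (all listed but *Il7r*) summed to 53.5 CPM there and to 4.87 to 9.78 CPM in the other 8 libraries. Among the Pre libraries, replicate 2 was the highest for *Pdgfra*, *Pdgfrb*, *Pi16*, *Ly6a*, *Dlk1* and *Hmga2*. Without scaling factors beyond the library totals, the median log2 fold change of all genes moved from 0.02 to 0.12 at WL1 against Pre and from 0.01 to 0.16 at WL2 against Pre. The genes called in those comparisons then split into 1003 higher and 642 lower (482 and 868 with TMM factors), and 1495 higher and 835 lower (620 and 1233). Each of the 10 members kept the direction of its fold change in the 3 comparisons under that scaling.

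Levels of different genes are compared in FPKM, which divides by gene length. *Dcn* (mean 149 FPKM over the 9 libraries) and *Ly6a* (124) were the most abundant members, and their ranges overlapped. *Cd34* (24.0) and *Pdgfrb* (20.6) followed, with overlapping ranges. *Pi16* (12.3), *Cd55* (10.8), *Dpp4* (6.10) and *Pdgfra* (4.96) came next, and each overlapped its neighbour in this order. *Hmga2* (0.173) and *Dlk1* (0.115) were far below, and their ranges overlapped. The order changed with phase at 5 places. *Ly6a* stood first at Pre (123 FPKM against 113 for *Dcn*, overlapping), whereas *Dcn* stood first at WL2 (201 against 137) with no overlap between the 3 libraries of each gene. *Pdgfrb* stood above *Cd34* only at WL1 (23.3 against 21.3 FPKM, overlapping), *Cd55* above *Pi16* only at Pre (13.5 against 12.6, overlapping), and *Pdgfra* above *Dpp4* only at WL1 (5.30 against 4.18, overlapping). *Hmga2* stood above *Dlk1* only at WL1 (0.389 against 0.103 FPKM), where the libraries of these genes did not overlap.

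**Figure D1:**
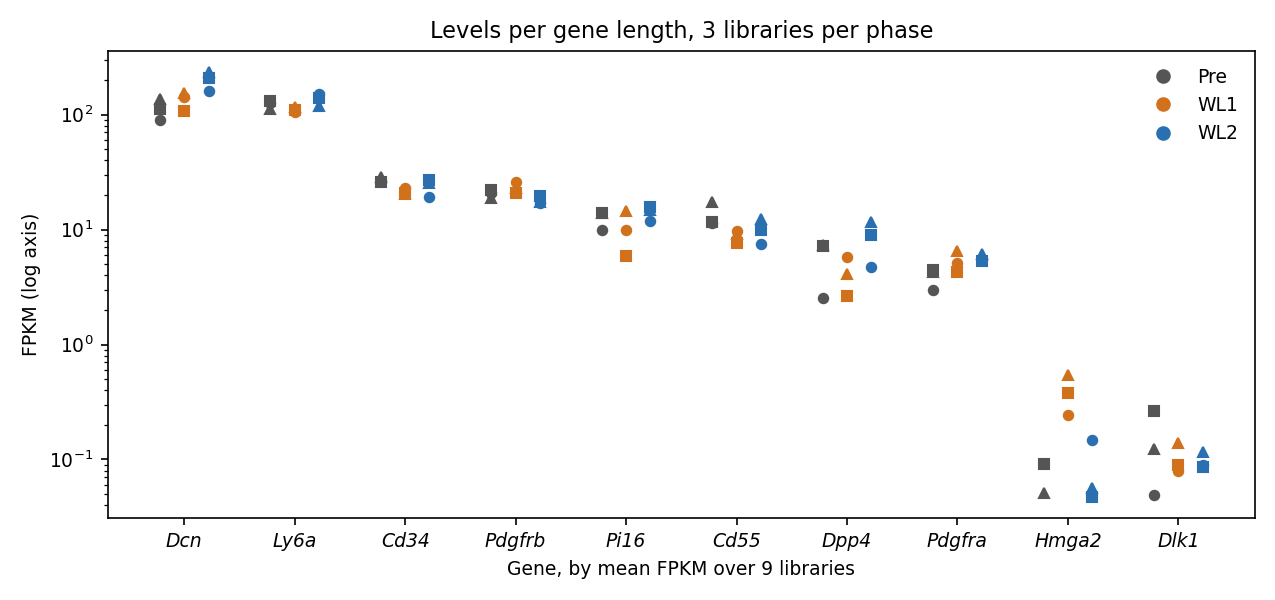
FPKM of the 10 genes on a log axis, ordered by the mean over 9 libraries, with 1 symbol per library (circle, square and triangle for replicates 1 to 3) and 1 colour per phase. *Dcn* and *Ly6a* lie between 90.0 and 235 FPKM and *Hmga2* and *Dlk1* under 0.539. The library with 0 reads of *Hmga2* (Pre replicate 1) is not drawn.

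At WL1 against Pre, 1 of the 10 members rose, namely *Hmga2*, and 0 fell, where 2.60% of all tested genes rose and 4.69% fell (edgeR quasi-likelihood test, Benjamini-Hochberg adjusted p under 0.05). The median log2 fold change of the members was -0.22, against 0.02 for all genes tested. At an unadjusted p under 0.05 there were 4 of 10 members (*Pdgfra*, *Cd34*, *Cd55* and *Hmga2*), and 24.3% of all genes. At WL2 against Pre, 1 of 10 members rose, namely *Dcn*, and 0 fell, where 3.35% of all genes rose and 6.66% fell. The median was 0.16 for the members and 0.01 for all genes, and 2 members (*Pdgfra* and *Dcn*) and 26.0% of all genes had an unadjusted p under 0.05. At WL2 against WL1, 0 of 10 members passed with edgeR, where 3.68% of all genes did, and 5 members (*Pdgfrb*, *Dpp4*, *Ly6a*, *Dcn* and *Hmga2*) and 21.4% of all genes had an unadjusted p under 0.05. DESeq2 called 3 of 10 members at WL2 against WL1, *Pdgfrb* and *Hmga2* lower and *Dcn* higher, and 11.9% of the genes it gave an adjusted p.

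**Figure D2:**
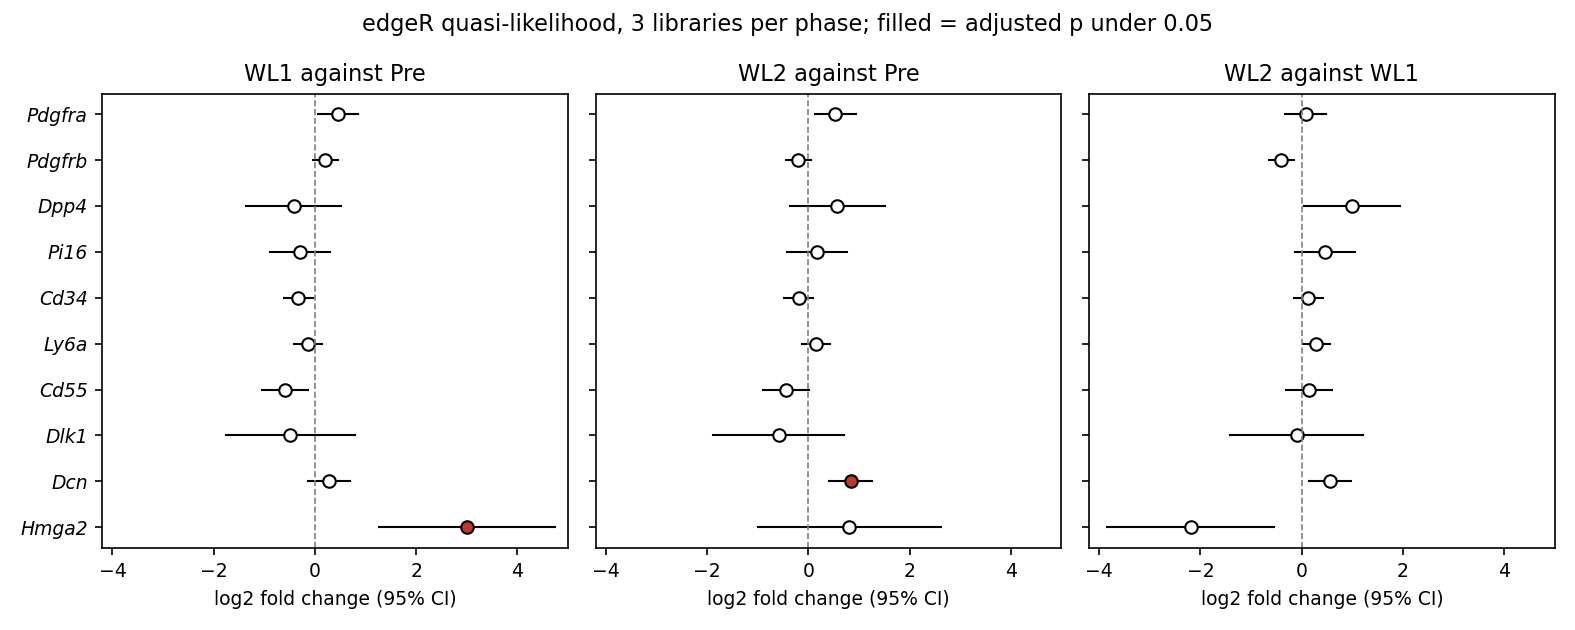
Log2 fold change of each of the 10 genes in the 3 comparisons of phases, with 95% confidence intervals from the edgeR fit; filled symbols passed an adjusted p of 0.05. *Hmga2* at WL1 against Pre (3.01) and *Dcn* at WL2 against Pre (0.84) are the filled symbols, and the intervals of *Hmga2*, *Dlk1* and *Dpp4* are the widest.

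The libraries of 2 phases did not overlap for 1 member higher and 2 lower at WL1 against Pre, where 14.7% of all genes were higher and 13.9% lower in this way. At WL2 against Pre 2 members were higher and 0 lower (15.1% and 15.8% of all genes), and at WL2 against WL1 1 was higher and 2 lower (13.9% and 16.4%). These shares were near those of all genes.

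*Hmga2* (chromosome 10, 120361275 to 120476469 on GRCm38) was measured on few reads. Its counts were 0, 12 and 8 at Pre, 33, 61 and 70 at WL1 and 20, 6 and 7 at WL2 in replicates 1 to 3. Every WL1 library lay above all libraries of the other phases. The count of 0 in Pre replicate 1 allows a level of up to 0.177 CPM on the same scale (3 counts), within counting error only. The mean level (± SD, n = 3) was 0.343 ± 0.331 CPM before the diet change, 2.84 ± 1.07 CPM at WL1 and 0.613 ± 0.418 CPM at WL2. At WL1 against Pre *Hmga2* rose by 3.01 on the log2 scale (SE 0.78, edgeR adjusted p = 0.0455), an 8.04-fold difference with a 95% interval of 2.41 to 26.8. The call was lost in 7 of the 9 fits that left out 1 library, among them the fit without Pre replicate 1 (2.46, adjusted p = 0.0637), and was kept without Pre replicate 2 (3.78, adjusted p = 0.0384) or without WL2 replicate 1. It was also lost with the 2 phases alone (2.99, adjusted p = 0.0666) and with the replicate number as a block (3.04, adjusted p = 0.0872). From WL1 to WL2 the log2 fold change was -2.19 (SE 0.74), which did not pass in edgeR (adjusted p = 0.120) and passed in DESeq2, with no filter, with the 2 phases alone and without Pre replicate 1 (adjusted p from 0.0226 to 0.219 over the alternatives other than left-out libraries). Between Pre and WL2 it was 0.81 with an interval of -1.002 to 2.63, so a return to the Pre level was not resolved from a remaining difference. That value was 0.27 without Pre replicate 1 and 1.59 without Pre replicate 2.

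Of the genes around *Hmga2*, its paralog, the IGF2BP family, the LIN28 proteins that block let-7 and known targets, 6 of 10 were tested. *Igf2bp2* rose at WL1 against Pre, and the other 5 did not pass in any comparison. *Igf2bp2* had 11.1, 10.2 and 15.8 CPM at Pre, 37.7, 36.6 and 67.1 at WL1, and 34.4, 10.6 and 12.7 at WL2. Like *Hmga2*, it was highest in WL1 replicate 3, and among the WL2 libraries it was highest in replicate 1. The rise from Pre to WL1 was 1.92 on the log2 scale (SE 0.42, edgeR adjusted p = 0.0249), and the call was lost without Pre replicate 1, Pre replicate 2 or WL1 replicate 3. *Hmga1*, the paralog, had 39.9, 69.5 and 51.8 CPM at Pre, 92.0, 124 and 171 at WL1 and 98.5, 41.1 and 34.8 at WL2, with a change from Pre to WL1 of 1.26 (log2) that did not pass (adjusted p = 0.0733). *Lin28b* was at 0 in every library, and *Igf2bp1* had at most 6 reads.

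The summed level of 12 macrophage genes was highest in the same libraries. It was 1777, 3335 and 2785 CPM at Pre, 3183, 3674 and 5952 at WL1 and 3468, 1980 and 2224 at WL2, with no listed gene at 0 in any library. Of the single genes, 10 of 12 were highest in WL1 replicate 3, the exceptions being *C1qa* and *Mertk*, and 10 of 12 were highest of the WL2 libraries in replicate 1, the exceptions being *Mertk* and *Mrc1*. None of the 12 passed in edgeR in any comparison, and 11 of 12 had a log2 fold change above 0 at WL1 against Pre (median 0.62). The genes whose log2 CPM over the 9 libraries was most like that of *Hmga2* were *Oas1a* (Pearson r = 0.983), *Plcl2* (0.982) and *Dpy19l3* (0.978), a description over libraries that share phase and tissue composition. The part of macrophages in the *Hmga2* and *Igf2bp2* values was not tested. Cell division genes were also higher at WL1, with a summed level of 95.1 to 141 CPM at Pre, 166 to 198 at WL1 and 38.1 to 89.6 at WL2. At WL1 against Pre 0 of these 12 genes passed in edgeR (all 12 above 0, median 0.68). From Pre to WL2 5 fell, of which the call of *Ube2c* was kept in all 9 fits without 1 library and the others in 1 to 4. From WL1 to WL2 7 fell, with *Cenpf* (-1.79), *Top2a* (-1.78) and *Ccna2* (-1.74) falling most (calls kept in 4, 5 and 8 of these 9 fits).

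**Figure D3:**
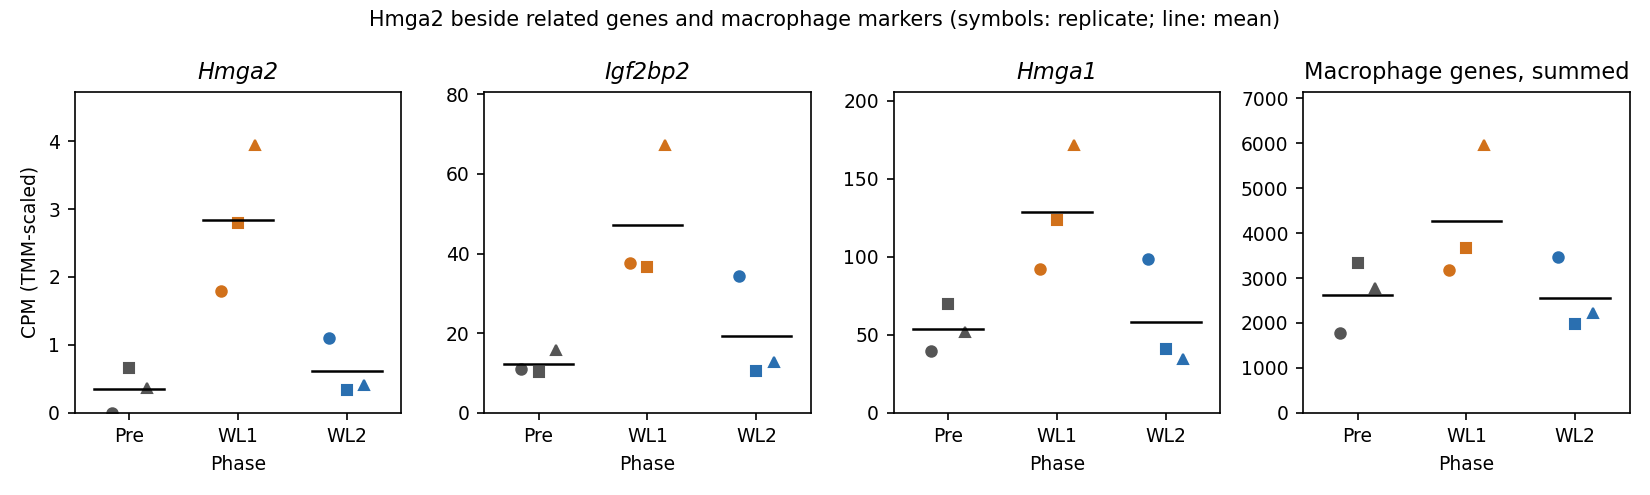
CPM of *Hmga2*, *Igf2bp2* and *Hmga1* and the summed CPM of 12 macrophage genes by phase, 1 symbol per library (circle, square and triangle for replicates 1 to 3) and a line at the mean of 3 libraries. In all 4 panels WL1 replicate 3 is the highest library, and WL2 replicate 1 is the highest of the WL2 libraries.

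*Dcn* (chromosome 10, 97479609 to 97518143) encodes decorin, a small proteoglycan that binds collagen fibrils and TGFβ. It was the most abundant member by mean FPKM over the 9 libraries, though not at Pre. It had 561, 691 and 850 CPM at Pre, 887, 687 and 968 at WL1 and 1027, 1277 and 1447 at WL2. All WL2 libraries lay above all others, and the WL1 libraries overlapped with those at Pre. From Pre to WL2 *Dcn* rose by 0.84 on the log2 scale (SE 0.19, edgeR adjusted p = 0.0215), a 1.78-fold difference with a 95% interval of 1.33 to 2.39. The rise passed in all 9 alternatives other than left-out libraries, and was lost without Pre replicate 1 (0.70, adjusted p = 0.0645), Pre replicate 2 (0.83), WL2 replicate 2 (0.82) or WL2 replicate 3 (0.72). Its log2 fold change was 0.27 from Pre to WL1 (edgeR adjusted p = 0.409) and 0.56 from WL1 to WL2 (edgeR adjusted p = 0.121). Neither passed the threshold in edgeR, and the first was 0.14 without Pre replicate 1. The part of other cell types in the *Dcn* values was not tested.

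Other small leucine-rich proteoglycans moved in both directions. Of 12 tested, *Podn* (1.36, adjusted p = 0.00353) and *Ogn* (1.08, adjusted p = 0.00972) rose at WL2 against Pre with *Dcn*, whereas *Prelp* (-0.91, adjusted p = 0.00111) and *Optc* (-1.69, adjusted p = 0.0323) fell, and the median of the list was -0.02. *Prelp* and *Optc* had also fallen at WL1 against Pre (-0.60 and -1.57), and 0 of 12 passed in edgeR at WL2 against WL1. The calls of *Podn*, *Ogn* and *Prelp* at WL2 against Pre were kept in all 9 fits without 1 library, and that of *Optc* in 3, whereas at WL1 against Pre those of *Prelp* and *Optc* were kept in 6 and 1. Among 20 other fibroblast genes, *Gsn* (0.76) and *Ogn* rose and *Serpinf1* (-1.21) and *Thy1* (-0.94) fell at WL2 against Pre, with a median of -0.23 against 0.01 for all genes. From Pre to WL1 only *Thy1* (-0.64) passed, and at WL2 against WL1 *Twist2* (1.30) and *Gsn* (0.75) rose and *Mmp2* (-0.98) and *Serpinf1* (-0.97) fell. The calls of *Serpinf1*, and those of *Thy1* and *Ogn* at WL2 against Pre, were kept in all 9 fits without 1 library. Those of *Thy1* at WL1 against Pre, *Twist2* and *Gsn* at WL2 against WL1 were kept in 4, that of *Gsn* at WL2 against Pre in 5, and that of *Mmp2* in 3 of these and in 3 of the 9 other settings. *Dcn* was thus called in the same direction as *Podn* and *Ogn* and opposite to *Prelp* and *Serpinf1*. The genes most like *Dcn* over the 9 libraries were *Klf4* (r = 0.982), *Nfkbiz* (0.969) and *Anxa9* (0.969). *Klf4* is a transcription factor of early adipogenesis, and was called higher at WL2 against Pre (0.75, edgeR adjusted p = 0.00920).

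**Figure D4:**
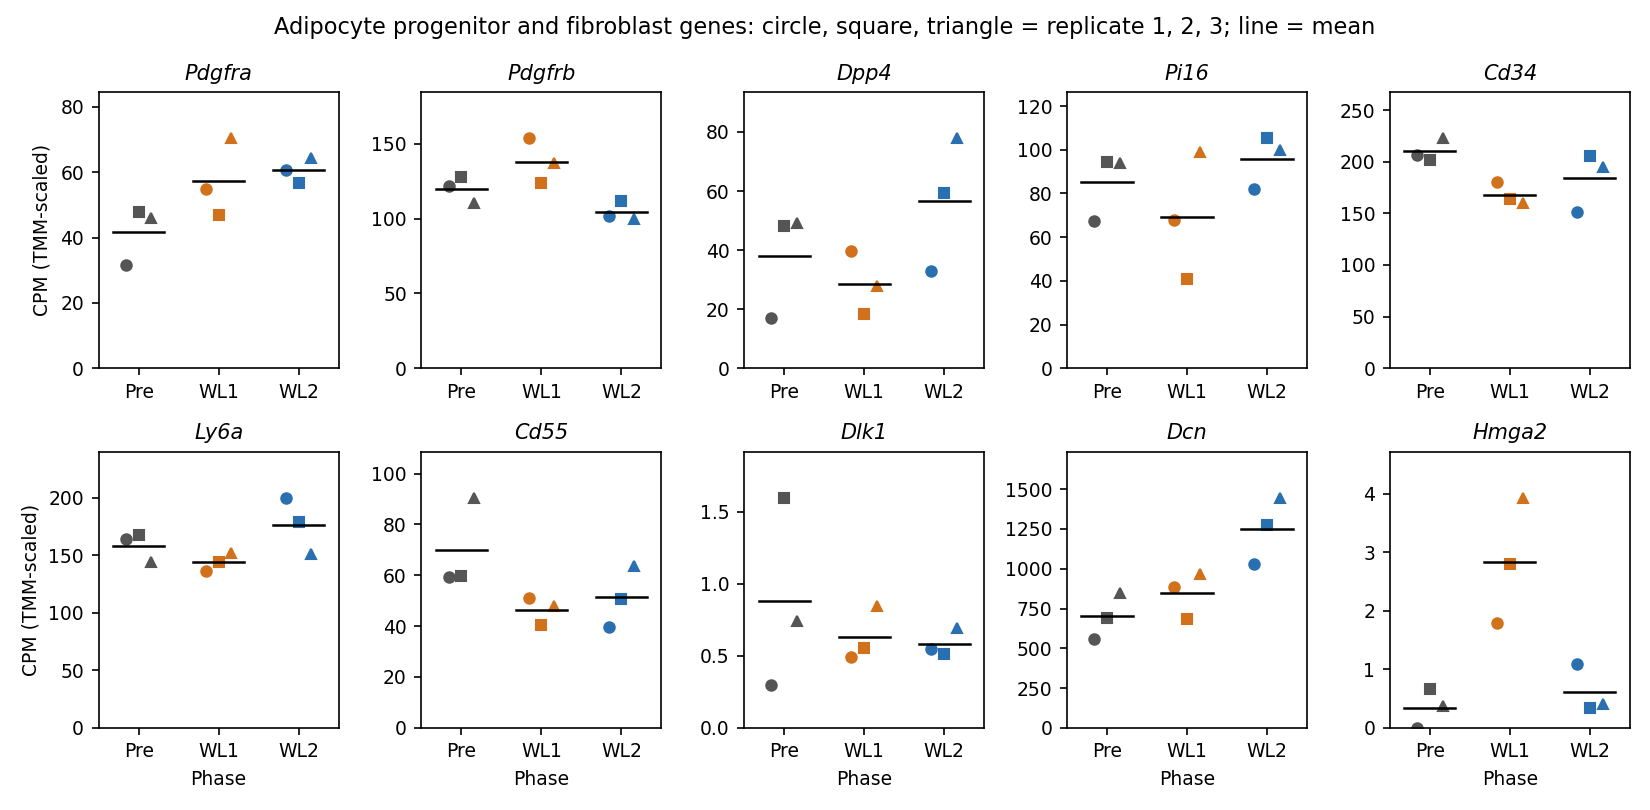
CPM of the 10 genes in the 9 libraries by phase, on linear axes that start at 0, with circle, square and triangle for replicates 1, 2 and 3 and a line at the mean of 3 libraries. *Hmga2* is high in the 3 WL1 libraries (1.79 to 3.94 CPM), *Dcn* is highest in the 3 WL2 libraries, and *Dpp4*, *Pi16* and *Dlk1* spread widely within at least 1 phase.

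*Pdgfra* and *Pdgfrb* encode the receptors for platelet-derived growth factors, the first known from progenitors and fibroblasts and the second also from pericytes and smooth muscle. *Pdgfra* (chromosome 5, 75152292 to 75198215) had 31.7, 47.9 and 45.9 CPM at Pre, 54.8, 46.7 and 70.4 at WL1 and 60.6, 56.8 and 64.3 at WL2. The WL2 libraries lay above those at Pre, and the WL1 libraries overlapped both. From Pre to WL2 its log2 fold change was 0.53 (SE 0.18, 95% interval 0.13 to 0.94), which did not pass in edgeR (adjusted p = 0.0942), passed with no filter and with library totals alone, and was 0.37 without Pre replicate 1 (adjusted p = 0.203). *Pdgfrb* had 121, 128 and 111 CPM at Pre, 154, 124 and 137 at WL1 and 101.5, 112 and 99.8 at WL2. Its WL2 libraries lay below all WL1 libraries. From WL1 to WL2 its log2 fold change was -0.40 (SE 0.11, 95% interval -0.65 to -0.15), which did not pass in edgeR (adjusted p = 0.0748) and passed in DESeq2 (adjusted p = 0.0216).

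The receptors were thus not parallel within libraries. The ratio of *Pdgfrb* to *Pdgfra*, in FPKM and so free of library scaling, was 7.02, 4.87 and 4.42 at Pre, 5.14, 4.84 and 3.55 at WL1 and 3.06, 3.61 and 2.84 at WL2. All WL2 libraries lay below all Pre libraries, and the highest of Pre was replicate 1, in which *Pdgfra* was lowest. Other surface markers differed in this ratio. *Cd34* to *Pdgfra* was 5.80 to 8.96 at Pre, 3.12 to 4.81 at WL1 and 3.44 to 4.98 at WL2, and *Cd55* to *Pdgfra* was 2.58 to 4.08, 1.40 to 1.93 and 1.35 to 2.05. *Pi16* to *Pdgfra* was 3.11 to 3.35 at Pre, 1.38 to 2.21 at WL1 and 2.13 to 2.92 at WL2. In these 3 ratios neither later phase overlapped with Pre. This is a description given without a test, since the ratios were chosen after the values were seen and share *Pdgfra*. *Pdgfra* itself lay higher at WL2 than at Pre without overlap. The share of all genes whose ratio to *Pdgfra* separated in this way was not computed, so the separation is not read as particular to these members. *Ly6a* to *Pdgfra* (26.1 to 43.0 at Pre, 18.0 to 25.7 at WL1 and 19.5 to 27.4 at WL2) overlapped between Pre and WL2, and *Dpp4* to *Pdgfra* (0.857 to 1.70, 0.619 to 1.15 and 0.858 to 1.92) overlapped between all phases. *Dcn* to *Pdgfra* overlapped between Pre (24.8 to 31.8) and WL2 (29.1 to 38.6).

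Of the PDGF ligands, *Pdgfb*, made by endothelium among other cells, rose at WL2 against Pre (means of 92.9 and 126 CPM, log2 fold change 0.44, edgeR adjusted p = 0.0235). *Pdgfc*, a ligand of PDGFRα, fell at WL1 against Pre (-0.55, adjusted p = 0.0417). *Plau*, the urokinase gene, rose at WL1 against Pre (0.66, adjusted p = 0.0455) and fell at WL2 against WL1 (-0.84, adjusted p = 0.0308). Each of these 4 calls was lost in 4 or more of the 9 fits without 1 library. *Pdgfa*, *Pdgfd* and *Plat* did not pass in any comparison. The markers of mural cells, which carry *Pdgfrb*, had a summed level of 1660 to 1942 CPM at Pre, 1042 to 1432 at WL1 and 1027 to 1414 at WL2 with no gene at 0. *Acta2* (-1.28) and *Cspg4* (-1.33) fell at WL1 against Pre, *Acta2* (-1.06), *Cspg4* (-1.80) and *Mcam* (-0.60) fell and *Higd1b* (1.03) rose at WL2 against Pre, and 0 of 12 passed in edgeR at WL2 against WL1. The calls of *Acta2* and *Cspg4* were kept in all 9 fits without 1 library, that of *Higd1b* in 8, and that of *Mcam* in 1 and in 5 of the 9 other settings. The part of mural cells in the *Pdgfrb* values was not tested. *Pdgfrb* was most like *Rreb1* (r = 0.967), *Rnf165* (0.924) and *Kdm2b* (0.913), and *Pdgfra* most like *Man2a1* (0.969), *Pdia4* (0.964) and *Serpinb6b* (0.963).

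*Dpp4* (chromosome 2, 62330073 to 62412231) encodes a surface peptidase, CD26, which trims dipeptides from incretins and chemokines. It had 17.1, 48.1 and 49.1 CPM at Pre, 39.6, 18.2 and 27.7 at WL1 and 32.8, 59.4 and 77.9 at WL2. Its libraries overlapped between all phases, and its coefficient of variation within a phase was 37.5% to 47.7%. Its log2 fold change from WL1 to WL2 was 0.99 (SE 0.43, 95% interval 0.05 to 1.94) and did not pass in edgeR (adjusted p = 0.210), though it did with no filter. It was -0.42 (-1.36 to 0.52) from Pre to WL1 and 0.57 (-0.36 to 1.51) from Pre to WL2, so the first interval reached past a 2-fold fall and the second past a 2-fold rise. Without Pre replicate 1 these values were -0.77 (adjusted p = 0.250) and 0.22 (adjusted p = 0.741).

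*Dpp4* moved with genes of mesothelium, the cell layer on the surface of the fat pad, which is itself known to express DPP4. The summed level of 10 mesothelial genes was 41.7, 388 and 352 CPM at Pre, 238, 48.0 and 122 at WL1 and 257, 539 and 730 at WL2. The library that was lowest for *Dpp4*, Pre replicate 1, was also lowest for this sum, and the 2 highest libraries, WL2 replicates 2 and 3, were the same for both. The defining genes were present in every library, *Upk3b* at 16.5 to 312 CPM and *Msln* at 7.20 to 108, and *Cdh1* was at 0 in 2 libraries. None of the 9 tested mesothelial genes passed in edgeR in any comparison, with 0 of 9 above 0 at WL1 against Pre (median -0.82) and 9 of 9 above 0 at WL2 against WL1 (median 1.89). The 3 genes most like *Dpp4* were *Wnt2b* (r = 0.993), the mesothelial gene *Lrrn4* (0.990) and *Fmod* (0.986). Between *Dpp4* and *Dcn* r was 0.759 over the 9 libraries and 0.873 within phases. *Dcn* had 561, 691 and 850 CPM at Pre, 887, 687 and 968 at WL1 and 1027, 1277 and 1447 at WL2. The WL2 libraries thus had the same order for *Dcn* and for the mesothelial sum. At Pre and at WL1 replicate 3 was the highest for *Dcn* but not for that sum. The part of mesothelium in the *Dpp4* and *Dcn* values was not tested.

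**Figure D5:**
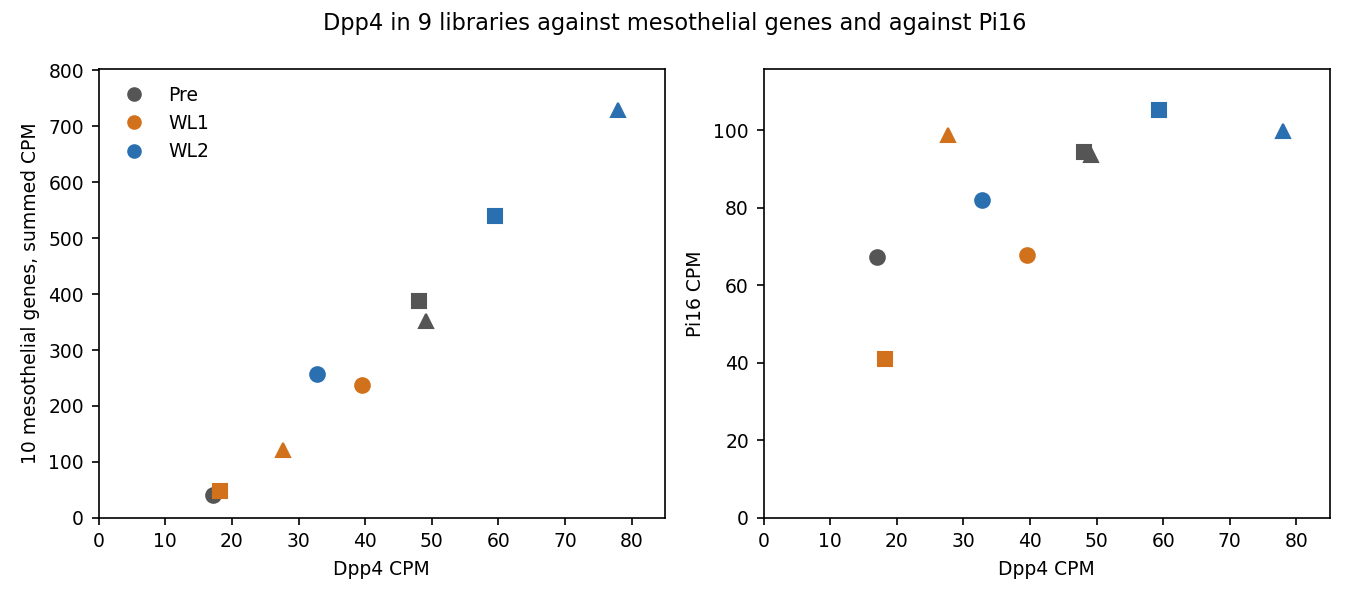
*Dpp4* CPM in the 9 libraries (horizontal axis) against the summed CPM of 10 mesothelial genes (left) and against *Pi16* CPM (right), 1 symbol per library (circle, square and triangle for replicates 1 to 3) and 1 colour per phase. The libraries with 17.1 and 18.2 CPM of *Dpp4* have 41.7 and 48.0 CPM of mesothelial genes, and the library with 77.9 CPM has 730. On the right, *Pi16* lies between 41.0 and 105 CPM, with its lowest value in the library with 18.2 CPM of *Dpp4*.

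*Pi16* encodes a secreted or membrane-bound peptidase inhibitor and marks the same interstitial cells as *Dpp4*. It had 67.4, 94.5 and 93.7 CPM at Pre, 67.9, 41.0 and 98.9 at WL1 and 82.0, 105 and 99.9 at WL2. The phases overlapped, and the widest spread was at WL1 (coefficient of variation 41.8%). No comparison passed in edgeR, with log2 fold changes of -0.30 (95% interval -0.89 to 0.29) from Pre to WL1, 0.17 (-0.42 to 0.76) from Pre to WL2 and 0.47 (-0.12 to 1.06) from WL1 to WL2. Without Pre replicate 1 the first was -0.44 and the second 0.02. *Pi16* was most like *Clip4* (r = 0.960), *Fgf18* (0.929) and *Islr2* (0.908), none of them among the 3 of *Dpp4*. Between *Pi16* and *Dpp4* themselves r was 0.736 over the 9 libraries and 0.644 within phases, a description over libraries that share depth and tissue composition. It was not particular to this pair, since *Dpp4* and *Dcn* had 0.759 and 0.873.

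*Cd55* encodes decay-accelerating factor, which protects cells from complement and marks interstitial progenitors. It had 59.2, 59.8 and 90.5 CPM at Pre, 51.2, 40.3 and 47.8 at WL1 and 39.5, 50.8 and 63.8 at WL2. All WL1 libraries lay below all Pre libraries, of which replicate 3 stood highest. From Pre to WL1 its log2 fold change was -0.59 (SE 0.21), which did not pass in edgeR (adjusted p = 0.117) and passed with no filter (adjusted p = 0.0428); without Pre replicate 3 it was -0.36 (adjusted p = 0.268). Its near copy *Cd55b* had at most 4 reads in a library and was not tested. *Cd55* was most like *Rps6ka3* (r = 0.952), *Fgf1* (0.939) and *Ptx3* (0.936).

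Among 20 further genes of interstitial progenitors, *Pcolce2*, an enhancer of procollagen cleavage, fell at WL1 against Pre (-1.05, edgeR adjusted p = 0.000433), further to WL2 against Pre (-1.54, adjusted p = 1.51e-05) and at WL2 against WL1 (-0.49, adjusted p = 0.0276). At WL2 against Pre *Sema3c* (-1.17, adjusted p = 0.0385) also fell and *Anxa3* (0.62, adjusted p = 0.00692) rose. The medians of the list were -0.33, -0.06 and -0.03 in the 3 comparisons. The calls of *Pcolce2* and *Anxa3* against Pre were kept in all 9 fits without 1 library, and those of *Sema3c* and of *Pcolce2* at WL2 against WL1 in 4. *Dpp4*, *Pi16* and *Cd55* were thus not called while *Pcolce2*, listed for the same cells, was called in each comparison.

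*Cd34* encodes a sialomucin of progenitors that endothelial cells also carry. It had 206, 202 and 223 CPM at Pre, 180, 164 and 160 at WL1 and 151, 206 and 195 at WL2. The WL1 libraries lay below those at Pre without overlap, and WL2 overlapped both. The log2 fold change from Pre to WL1 was -0.33 (SE 0.13, 95% interval -0.61 to -0.04), which did not pass in edgeR or in any of the 18 alternatives (adjusted p from 0.0850 to 0.321). The 12 endothelial genes, which summed to 2165 to 3138 CPM at Pre, 1787 to 3301 at WL1 and 2411 to 2825 at WL2, gave 0 calls in edgeR in each comparison, with medians of 0.02, 0.08 and 0.01. *Cd34* was most like *Gm14327* (r = 0.957), *Igfbp5* (0.950) and *Aff4* (0.944).

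*Ly6a* encodes Sca-1, a small surface protein tethered by a lipid anchor, which many stem and progenitor cells, endothelium and T cells carry. It had 164, 168 and 144 CPM at Pre, 136, 144 and 152 at WL1 and 200, 178 and 151 at WL2. The phases overlapped, and WL1 had the smallest spread (coefficient of variation 5.64%). The log2 fold change from WL1 to WL2 was 0.29 (SE 0.12, 95% interval 0.02 to 0.57) and did not pass in edgeR (adjusted p = 0.205), and those against Pre were -0.14 at WL1 and 0.16 at WL2. Reads of *Ly6a* could be split with its close relatives, of which *Ly6c1* (218, 197 and 262 mean CPM at Pre, WL1 and WL2) and *Ly6e* (543, 432 and 527) were abundant and did not pass either, so its level is uncertain to that extent. Of 8 tested relatives of *Ly6a*, *Cd55* and *Dpp4*, 0 passed in edgeR in any comparison. *Ly6a* was most like *Rnf181* (r = 0.949), *Osgep* (0.937) and *Imp3* (0.932). T cell genes summed to 17.1 to 77.9 CPM at Pre, 71.4 to 154 at WL1 and 30.1 to 75.0 at WL2, and of 10 tested only *Il7r*, which other cells also express, passed (2.15 at WL1 against Pre, kept in 5 of the 9 fits without 1 library). The other 9 had log2 fold changes below 0 in that comparison (median of the 10 genes -1.32), and all 9 were highest in Pre replicate 2. Their sum was 5.43, 53.5 and 5.58 CPM at Pre and 6.69 to 9.78 CPM at WL1, so that the WL1 libraries lay above the other 2 Pre libraries.

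*Dlk1* encodes Pref-1, a Notch-like protein that holds preadipocytes from differentiating, and is expressed from the paternal copy of an imprinted cluster. It was at the edge of detection, with 5, 29 and 16 counts at Pre, 9, 12 and 15 at WL1 and 10, 9 and 12 at WL2. The Pre libraries spanned the values of both other phases. The log2 fold changes were -0.48 (95% interval -1.76 to 0.79) from Pre to WL1, -0.58 (-1.88 to 0.71) from Pre to WL2 and -0.10 (-1.41 to 1.21) from WL1 to WL2, so a 2-fold fall lay within each interval. Without Pre replicate 1 the first of these values was -0.89 and the second -0.98, and without Pre replicate 2 they were 0.25 and 0.15. The maternally expressed RNAs of the same cluster were higher in level, with *Meg3* at 70.9, 94.5 and 92.1 mean CPM and *Rian* at 31.98, 32.5 and 37.5 at Pre, WL1 and WL2. Of 9 tested genes of the cluster and of Notch signalling, 0 passed in edgeR in any comparison, with medians of 0.09, 0.08 and -0.01.

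Genes that lie further along the path from progenitor to fat cell were read beside the members. Of 20 committed preadipocyte and stromal genes, *Col15a1*, a basement membrane collagen, fell at WL1 against Pre (-1.28), WL2 against Pre (-1.88) and WL2 against WL1 (-0.60), *Igf1* fell in both comparisons with Pre (-0.46 and -0.68), and *Fgf10*, a growth factor for preadipocytes, rose at WL2 against Pre (0.71) and against WL1 (0.73). The medians of that list were -0.10, 0.01 and 0.02. The calls of *Col15a1* against Pre were kept in all 9 fits without 1 library, whereas its call at WL2 against WL1 was kept in 4, those of *Fgf10* in 7 and 4, and those of *Igf1* in 2 at WL1 and 9 at WL2. The WL1 call of *Igf1* was also lost with library totals, with the 2 phases alone and with the replicate block. Of 20 transcription regulators of adipocyte commitment, *Zfp423*, which maintains the identity of white adipocytes and their precursors, fell at WL1 (-0.57) and WL2 (-0.97) against Pre, together with *Stat5a* (-0.50 and -0.43). *Klf15* (-0.69) fell from Pre to WL1, and from WL1 to WL2 *Klf15* (1.00), *Cebpd* (0.98) and *Pparg* (0.54) rose. *Cebpd* (0.89), *Klf4* (0.75) and *Ebf1* (0.69) rose at WL2 against Pre. The medians were -0.19, 0.18 and 0.40. Of these calls, those of *Klf4* and *Zfp423* at WL2 against Pre were kept in all 9 fits without 1 library, and the others in 3 to 8.

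Of 15 tested genes known from profibrotic or inflammatory progenitors, *Thbs1* (1.17), *Cd9* (1.16) and *Nox4* (0.72) rose and *Acta2* (-1.28) fell at WL1 against Pre. *Cd9* separates fibrogenic from adipogenic PDGFRα+ progenitors, and macrophages carry it too. It had 62.3, 71.1 and 71.1 CPM at Pre, 111, 132 and 216 at WL1 and 144, 74.0 and 76.7 at WL2, so WL1 replicate 3 and WL2 replicate 1 stood highest in their phases, as for *Hmga2* and for the macrophage sum. The call of *Cd9* was kept in 4 of the 9 fits without 1 library, that of *Nox4* in 0, and those of *Thbs1* and *Acta2* in all 9. From Pre to WL2 *Thbs1* (1.95) rose, and *Ccl2* (-1.19), *Acta2* (-1.06) and *Lox* (-1.001) fell, and at WL2 against WL1 *Lox* (-0.78) fell. Of these, the call of *Ccl2* was kept in 6 fits and that of *Lox* at WL2 against WL1 in 5. The medians were 0.30, 0.09 and -0.41.

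Some genes of other cell types also differed between phases. Of 8 B cell genes, *Ighm* alone passed, falling by 3.01 on the log2 scale in both comparisons with Pre. The 8 genes summed to 1126 to 2742 CPM at Pre, 177 to 302 at WL1 and 161 to 254 at WL2. Most of each sum was *Ighm*, which had 1120, 2502 and 1246 CPM at Pre, 159 to 285 at WL1 and 137 to 234 at WL2. Each of the other listed B cell genes was highest in Pre replicate 2, so the sum does not describe these genes as a group. Of 12 adipocyte genes, *Retn* (-1.86), *Cidec* (-0.84) and *Lep* (-0.83) fell most of 4 at WL1 against Pre. From Pre to WL2 *Lep* (-2.03) and *Cidec* (-0.67) fell and *Cfd* (1.61) rose, and at WL2 against WL1 *Cfd* (1.94) and *Retn* (1.51) rose and *Lep* (-1.20) fell. The calls of *Cfd* were kept in 5 and 4 of the 9 fits without 1 library. Of the 2 epididymis and testis genes that could be tested, 0 passed in edgeR in any comparison. The part of these cells in the members' values was not tested.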

How the data were processed

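RNA of epididymal adipose tissue was sequenced in 9 libraries, 3 per phase. For each gene, the authors deposited raw counts and, in a second table of the same libraries, FPKM, whose values imply library totals 0.995 to 1.12 times as large as the summed counts. The submitters' processing notes name HISAT2, HISAT, TopHat2 and CASAVA and the builds GRCm38 and mm10. No source used here gives the strand setting. The deposited coordinates equalled those of GENCODE M21 (GRCm38) for 1472 of 52073 shared gene identifiers, so locations were taken from that annotation and 3′UTR sequences from its transcripts.

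Testing covered genes that reached 0.5 CPM in 1 library or more. It used the two-sided quasi-likelihood test of edgeR 4.0.16 in R 4.3.3, with TMM factors and a single model over the 3 phases, with Benjamini-Hochberg adjustment over all genes tested and a threshold of 0.05. CPM were scaled by TMM, and fold changes are given as the later phase over the earlier one. Other settings were tried in turn, namely testing every gene, requiring the minimum in 3 libraries, DESeq2 1.42.0, RLE factors, library totals, the 2 compared phases alone, the replicate number as a block, limma 3.58.1 on log2(FPKM + 1) and log2(FPKM + 0.1), and leaving out each library. The fit was tested on simulated data. No pair of libraries within a phase looked like a repeat deposit (chi-square divided by its degrees of freedom, 8.84 to 46.8). Named are the members, of each list at most the 3 genes past the threshold with the largest change per direction and comparison, and for members with a mean of 1 CPM or more the 3 protein-coding genes of 13055 (mean at least 1 CPM) with the highest Pearson correlation of log2 CPM. *Igf2bp1*, *Igf2bp3*, *Lin28a*, *Lin28b*, *Hmga1*, *Igf2*, *Plag1*, *Pcna*, *Cd55b*, *Ly6c1*, *Ly6e*, *Meg3*, *Rian*, *Upk3b*, *Msln*, *Cdh1*, *C1qa*, *Mertk*, *Mrc1*, *Pdgfa*, *Pdgfd* and *Plat* were named outside this rule. The members and lists were chosen with earlier results of these data known.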

Additional observations from a re-analysis of the deposited data

How the results depend on the processing

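The number of members past the threshold at WL1 against Pre, WL2 against Pre and WL2 against WL1 was 1, 1 and 0. With no filter it was 2, 2 and 2 (*Cd55* and *Hmga2*, *Pdgfra* and *Dcn*, *Dpp4* and *Hmga2*). DESeq2 gave 3 at WL2 against WL1, and library totals alone gave 2 at WL2 against Pre. With the 2 phases alone it was 0 at WL1 against Pre, where *Hmga2* had an adjusted p of 0.0666, and 1 at WL2 against WL1. Without 1 library each count ranged from 0 to 1. The replicate numbers are shared by the phases. Deviations of same-numbered libraries from their phase mean correlated between -0.277 and 0.107, and those of differently numbered libraries between -0.197 and 0.239. Whether same-numbered libraries share a batch or handling was not tested. With the replicate block 0 members passed at WL1 against Pre (*Hmga2* 3.04, adjusted p = 0.0872), where 844 of 18510 genes did, and no other call of a member changed. Leaving out 1 library turned the direction of *Dlk1* in each comparison (-0.89 to 0.25, -0.98 to 0.15 and -0.25 to 0.18), of *Pdgfra* at WL2 against WL1 (-0.048 to 0.27) and of *Cd55* at WL2 against WL1 (-0.041 to 0.30). Of 540 single values over all alternatives, 512 kept direction and side of the threshold, 13 no longer passed, 10 passed newly and 5 turned. The causes of these changes were not tested. *Dlk1* and *Hmga2* were the members with the fewest reads, at most 29 and 70 in a library, and no setting varied the depth.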
